A study of Homo sapiens with 18 samples.

Results

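The comparison described here sets HCT116 cells carrying the N108 mutant of IκBα against HCT116 cells carrying the wild-type protein (WT), both after TNF. HCT116 is a human colorectal carcinoma line of epithelial origin. All cells were knock-ins of IκBα, and both groups received human TNFα at 0.1 µg/mL for 40 min. The members were set by their labels: 3 N108 and 3 WT libraries of the 18 in the series. All 19038 genes of 61552 in the count table that passed a filter on low counts were tested. The other groups are N108 and WT untreated, and a second mutant, M3, in which H84, E85 and E86 were changed to A, untreated and with TNF. The labels name 1 line for each genotype and do not say whether it is 1 clone or whether replicates were separate cultures. An effect of the mutation therefore cannot be told apart from a difference between the lines, and the p-values rest on variation among libraries that may be only technical. The labels do not say what replaces residue 108, and counts per gene cannot show it.

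IκBα, encoded by NFKBIA, binds NF-κB dimers and holds them in the cytoplasm. TNF binding to its receptor assembles a complex that activates the IκB kinases, which mark IκBα for breakdown, and freed NF-κB enters the nucleus and transcribes inhibitors, chemokines and adhesion molecules. NFKBIA itself and TNFAIP3 (the ubiquitin-editing enzyme A20) are among the earliest of these targets and shut the pathway down again. The title of the series calls such mutants separation-of-function mutants and asks about a role of IκBα outside NF-κB in intestinal stemness.

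With TNF, 8886 genes (46.7% of those tested) differed between N108 and WT at an adjusted p under 0.05 by edgeR's quasi-likelihood test, 4385 higher in N108 (23.0%) and 4501 lower (23.6%). Most differences were small: 2834 of the higher and 3358 of the lower genes changed by less than 1.5-fold. At least 2-fold changes numbered 1289 (6.77%), 685 higher (3.6%) and 604 lower (3.17%), and changes of 16-fold or more were 12 higher and 56 lower. The 3 N108 and 3 WT libraries did not overlap in 50.5% of all genes, N108 being higher in 25.0% and lower in 25.5%. The median log2 fold change over all genes was 0.02. Library totals were 52444779 to 61741921 counts for N108 and 49606478 to 58882553 for WT. In these data GC content moved with the comparison: the median transcript GC was 51.86% for genes called higher and 45.71% for genes called lower, against 49.01% for all. N108 replicates 1 and 2 leaned to GC-rich genes (Spearman correlation across 12616 genes of a library's deviation with GC of 0.42 and 0.63), unlike N108 replicate 3 (-0.13) and the WT libraries (-0.15 to -0.01). The part of GC in single results was not tested beyond a fit with the trend removed. Counts of called list members with TNF are to be read against the 23.0% higher and 23.6% lower over all genes. Over the 13907 protein-coding genes alone, 24.04% were higher and 29.69% lower, the nearer measure for lists of such genes.

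**Figure D1:**
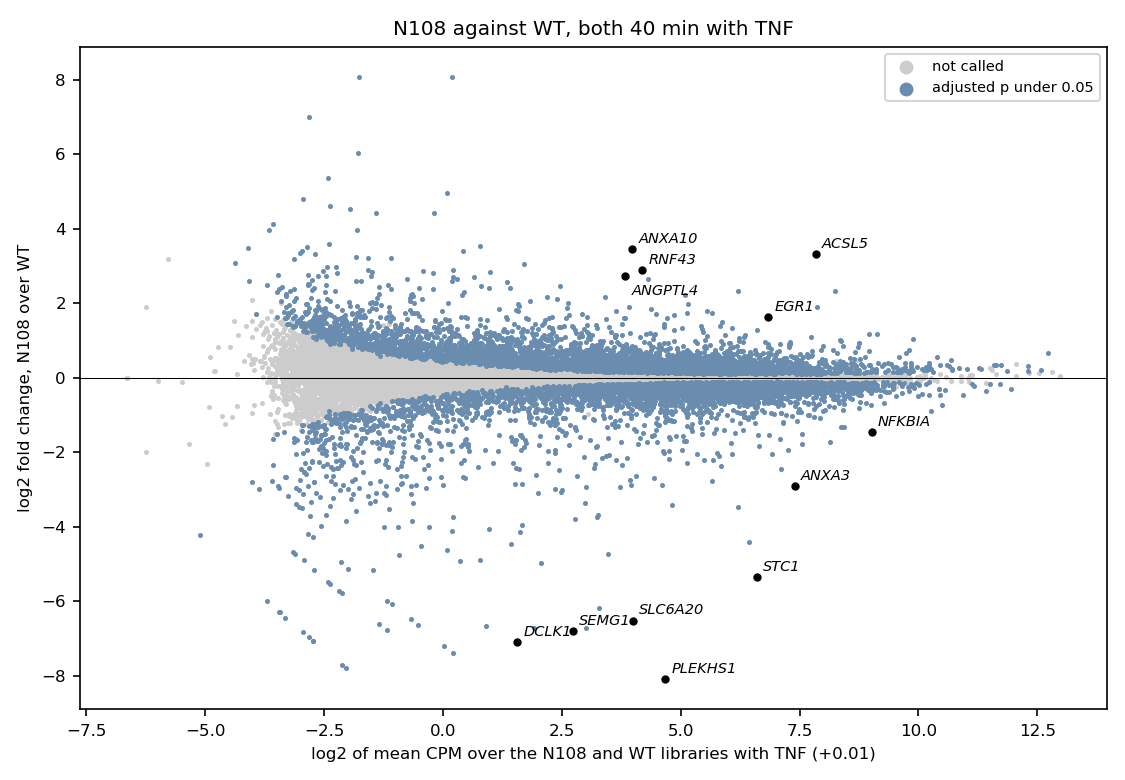
Each point is 1 of 19038 genes, with the log2 of its mean CPM plus 0.01 on the horizontal axis and the log2 fold change of N108 over WT, both with TNF, on the vertical axis. Blue points have an adjusted p under 0.05, and the lowest named gene is PLEKHS1 at -8.09.

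The gene that was edited, NFKBIA (chr14, 35401511 to 35404749 in GENCODE 29 on GRCh38, the build of the counts), was lower in N108. It stood at 274, 296 and 258 CPM (read counts relative to the TMM-scaled library size) in the N108 libraries and at 744, 749 and 781 CPM in the WT libraries. Every N108 library lay below every WT library, with a log2 fold change of -1.46, SE 0.05, adjusted p = 5.1e-19. Untreated, the levels were 30.1, 28.5 and 32.1 CPM in N108 and 90.8, 87.4 and 96.5 CPM in WT, a log2 difference of -1.60. In both lines every library with TNF lay above every untreated one, and the interaction term, which asks whether the genotype difference changed with TNF, was 0.14 and not called (adjusted p = 0.26). The M3 libraries with TNF held 943, 985 and 969.7 CPM, above WT, and N108 against M3 with TNF gave -1.81 (SE 0.05, adjusted p = 1.5e-20). Counts per gene measure the transcript and say nothing of the amount of IκBα protein.

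Genes around NFKBIA on chromosome 14 did not share 1 direction. Of 20 tested from the list of its neighbours, 6 were higher and 10 lower, NFKBIA included, with a median of -0.15. The strongest changes beside NFKBIA by p were in BRMS1L, a subunit of a histone deacetylase complex (-0.67), and FAM177A1 (-0.42). NKX2-1, a homeobox factor, was the highest neighbour at 1.45, and FOXA1, a pioneer factor of endoderm, was lower at -0.71.

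The promoters of 4 NF-κB targets are printed because these genes differed in direction or size between the lines while sharing a κB-like motif. Sequences run 5′ to 3′ on the gene's strand, 250 bases before to 50 after the RefSeq start (GRCh38.p14), with every match to GGNNNTTCC on either strand in capitals.
NFKBIA, chr14:35404700-35404999, minus strand: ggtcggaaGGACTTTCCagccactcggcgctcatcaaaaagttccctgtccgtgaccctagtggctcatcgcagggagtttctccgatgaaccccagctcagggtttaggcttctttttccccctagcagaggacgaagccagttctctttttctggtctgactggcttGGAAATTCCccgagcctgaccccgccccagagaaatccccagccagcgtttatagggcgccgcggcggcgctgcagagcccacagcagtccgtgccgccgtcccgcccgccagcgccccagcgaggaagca
TNFAIP3, chr6:137867009-137867308, plus strand: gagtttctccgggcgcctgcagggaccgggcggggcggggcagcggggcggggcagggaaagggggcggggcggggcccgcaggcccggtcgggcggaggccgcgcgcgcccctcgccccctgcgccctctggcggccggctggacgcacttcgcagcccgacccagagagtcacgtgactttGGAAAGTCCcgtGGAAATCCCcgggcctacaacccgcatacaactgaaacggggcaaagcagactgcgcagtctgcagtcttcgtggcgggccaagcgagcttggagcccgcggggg
CXCL8, chr4:73740319-73740618, plus strand: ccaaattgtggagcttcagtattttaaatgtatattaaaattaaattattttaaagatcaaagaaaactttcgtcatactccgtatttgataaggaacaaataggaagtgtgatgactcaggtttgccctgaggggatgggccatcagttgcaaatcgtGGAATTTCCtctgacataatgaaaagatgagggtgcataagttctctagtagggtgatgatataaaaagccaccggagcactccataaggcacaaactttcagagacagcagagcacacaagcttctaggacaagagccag
ICAM1, chr19:10270870-10271169, plus strand: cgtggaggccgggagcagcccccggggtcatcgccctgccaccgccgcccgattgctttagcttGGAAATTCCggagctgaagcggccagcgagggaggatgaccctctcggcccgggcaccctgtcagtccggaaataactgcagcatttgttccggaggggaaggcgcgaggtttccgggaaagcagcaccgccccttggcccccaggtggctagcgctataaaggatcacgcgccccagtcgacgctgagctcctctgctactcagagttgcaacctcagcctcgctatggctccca
NFKBIA and TNFAIP3 hold 2 matches each in these windows, and CXCL8 and ICAM1 hold 1. The motif occurs in 20.1% of all 27305 promoters of this length. It was found in 19 of the 36 tested early NF-κB targets with a promoter sequence (52.8%), in 11 of the 19 that were lower in N108 and in 2 of the 7 that were higher. A match is only a run of letters and says nothing of binding in these cells.

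Among the 12 genes for NF-κB subunits and IκB proteins, 4 were lower in N108 and 1 was higher, against 46.7% called in either direction over all genes. Beside NFKBIA, NFKB1, the gene of p105 and p50, fell from 76.2, 73.1 and 74.4 CPM in WT to 57.6, 58.4 and 60.5 CPM in N108 (-0.34, SE 0.04, adjusted p = 2.5e-07). BCL3, an IκB-like coactivator in the nucleus, was lower at 39.7, 50.5 and 35.8 against 55.3, 58.6 and 51.8 CPM (-0.40, adjusted p = 0.00077). RELA, the main activating subunit, was called lower by a small margin (-0.13, SE 0.05, adjusted p = 0.031), a call that was lost without any one of N108 replicates 1 or 3 or WT replicate 3 (adjusted p of 0.061, 0.14 and 0.15). NFKB2, the p100 precursor, was called higher at 0.19 (SE 0.05, adjusted p = 0.0052) with overlapping libraries, and it lost the call without WT replicate 3 (adjusted p = 0.058). With only the groups compared in the fit, neither RELA (adjusted p = 0.056) nor NFKB2 (adjusted p = 0.061) was called. RELB (0.04), REL (0.13, called at 0.27 with the GC trend removed), NFKBIB (0.02), NFKBIE (-0.05), NFKBIZ (0.02), NFKBID (-0.06) and NFKBIL1 (-0.11, called at -0.20 with the GC trend removed) were not called.

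Of 39 early NF-κB target genes tested, 19 were lower in N108 (48.72%, against 23.6% of all genes), 7 were higher (17.95%, against 23.0%) and 13 were not called. Their median log2 fold change was -0.25, against 0.02 for all genes. Untreated, 13 of the 39 were lower in N108 (33.33%, against 21.6% of all genes) and 4 higher (10.26%, against 20.9%), with a median of -0.17. The interaction of genotype with TNF was called for 7 of them (17.95%, against 2.62% of all genes), 5 positive and 2 negative. With TNF, the feedback inhibitor TNFAIP3 read 151, 174 and 146 CPM in N108 and 254, 265 and 245 CPM in WT, with no overlap (-0.70, SE 0.06, adjusted p = 3.8e-11). IRF1, a transcription factor of the interferon and TNF responses, read 131, 144 and 114 CPM and 222, 229.8 and 238 CPM (-0.83, SE 0.06, adjusted p = 6.3e-12). BIRC3, the ubiquitin ligase cIAP2 that protects cells from TNF-induced death, read 34.4, 34.8 and 33 CPM against 60.2, 68.7 and 60.1 CPM (-0.89, SE 0.07, adjusted p = 4e-11). These 3 targets, like NFKBIA, were lower in each N108 library than in any WT library.

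Some targets stood at low levels. TNF itself stood at 0.587, 0.54 and 0.6 CPM in N108 and 1.4, 1.66 and 1.5 CPM in WT (-1.40, SE 0.21, adjusted p = 3.9e-06). SELE, the adhesion molecule E-selectin, stood at 0.13, 0.328 and 0.167 CPM and 0.955, 0.784 and 0.94 CPM (-2.12, SE 0.32, adjusted p = 7e-06). IL1A, an interleukin released on damage, was lower (-1.66, adjusted p = 0.0044), at 0.0489, 0.0964 and 0.0666 against 0.163, 0.28 and 0.226 CPM. CD83 (-0.43) and the hexose transporter SLC2A6 (-0.45), at higher levels, were lower too. Of the other cytokines tested, CSF2 was called lower (-0.82, adjusted p = 0.04), a call that was lost with DESeq2 (0.090), with the replicate block (0.056) and without N108 replicate 1 (0.14), N108 replicate 2 (0.083) or WT replicate 2 (0.26). IL23A (-0.40), LTB (0.35) and CSF1 (-0.13, called at -0.19 with the GC trend removed) were not called.

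Other targets did not follow. The neutrophil chemokine CXCL1 read 89.8, 110.5 and 85 CPM in N108 and 85.2, 92.9 and 97.9 CPM in WT, overlapping and not called (0.05, adjusted p = 0.63). CXCL8 (interleukin-8) read 107, 119 and 111 CPM and 116, 132 and 147 CPM. It was called lower at -0.23 (adjusted p = 0.0029), but its libraries overlapped, and with the GC trend removed it stood at 0.01 (adjusted p = 0.91). CXCL2 (-0.13) and CCL20 (-0.36), both chemokines, were not called with all libraries, but leaving out N108 replicate 2 brought both past the threshold at -0.31 and -0.54, and leaving out WT replicate 1 did so for CCL20 (-0.50). NFKBIZ, an IκB family coactivator, was nearly level at 52.2, 59.7 and 51.6 against 53.7, 56.6 and 51.1 CPM.

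The share of targets called higher was no larger than that over all genes. Among the 7, ICAM1, the receptor for leukocyte integrins, read 61, 72.2 and 50.9 CPM in N108 and 38.2, 42 and 37.7 CPM in WT (0.64, SE 0.08, adjusted p = 1.9e-06). ZC3H12A, the RNase Regnase-1 that degrades inflammatory transcripts, read 26.9, 31.7 and 24.7 CPM and 16.3, 19.1 and 18.3 CPM (0.63, SE 0.07, adjusted p = 9.5e-08). CYLD, a deubiquitinase that restrains the kinase complex, was higher at 0.40, TNIP1, a partner of A20, at 0.34, and TNFAIP8 at 0.35. For these 5 genes every N108 library exceeded every WT library.

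**Figure D2:**
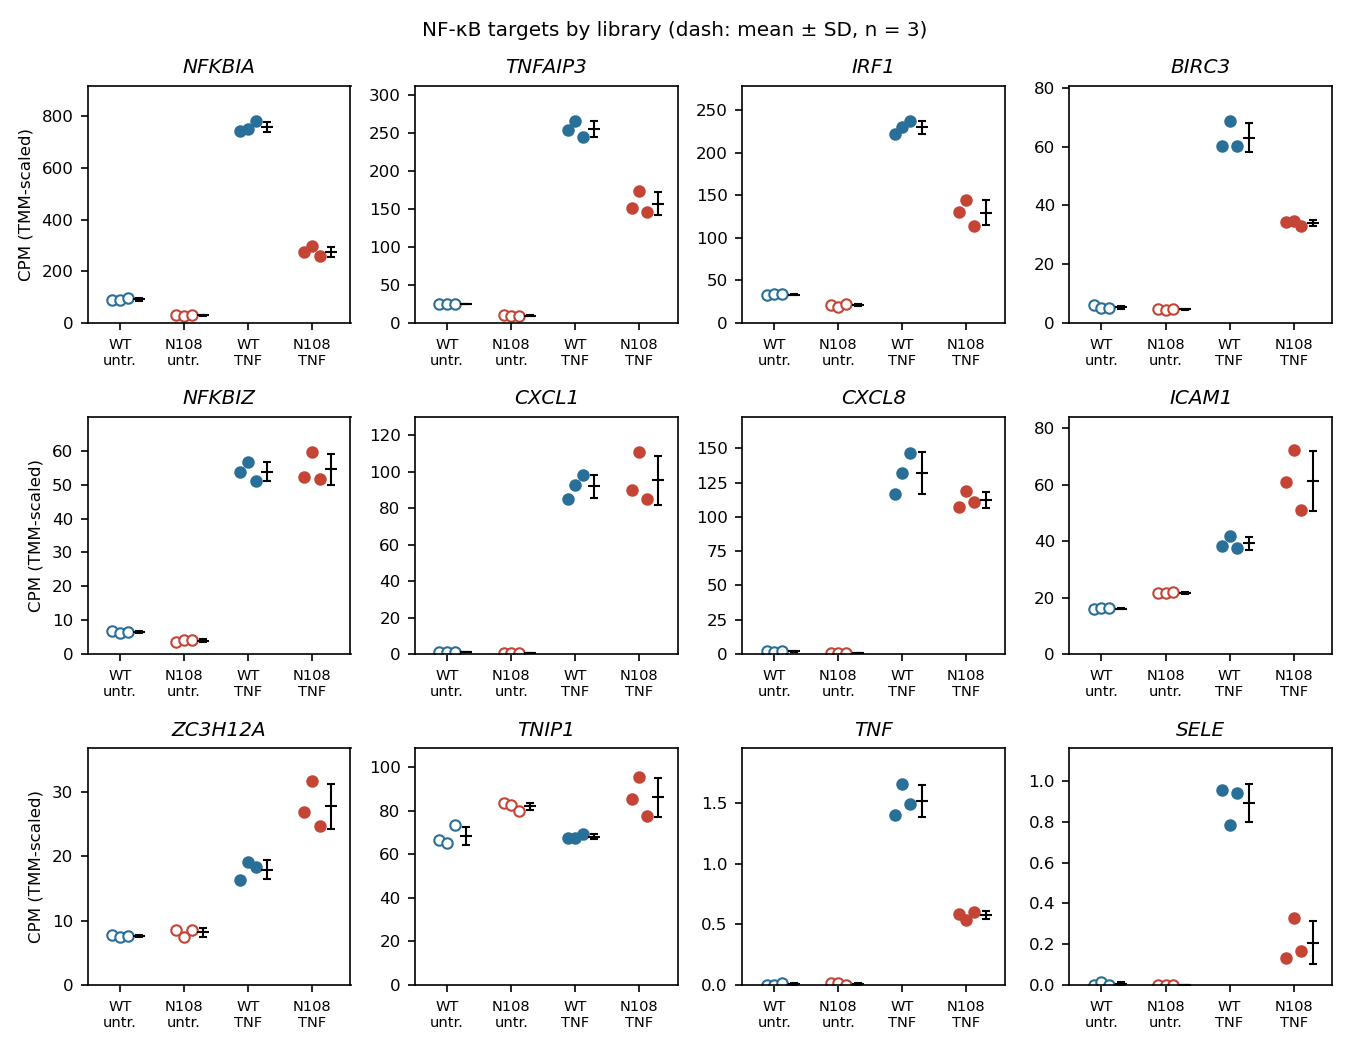
Levels of 12 NF-κB targets in CPM in each library of WT and N108, untreated (open) and with TNF (filled), with the mean and SD of 3 libraries as a dash and bar. With TNF the N108 libraries of NFKBIA (258 to 296 CPM) lie below the WT libraries (744 to 781 CPM), those of ICAM1 lie above, and those of NFKBIZ and CXCL1 overlap.

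A set of TNF-responsive genes came from M3. There 209 genes (1.1%) rose and 53 (0.278%) fell after TNF at an adjusted p under 0.05. That contrast compares M3 libraries only, but its filter on low counts and its estimate of spread were shared with all 18 libraries. Of the 209, 109 were lower in N108 than in WT with TNF and 45 were higher (52.15% and 21.53%, against 23.6% and 23.0% of all genes), with a median of -0.20. Of the 62 (0.326% of all genes) that rose at least 2-fold in M3, 32 were lower and 12 higher, with a median of -0.27. Of the 53 that fell, 27 were higher and 11 lower, with a median of 0.19. Untreated, 89 of the 209 were lower in N108 and 40 higher (42.58% and 19.14%, against 21.6% and 20.9% of all genes).

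Upstream of NF-κB, 13 of 26 genes of the TNF receptor complex and its kinases were lower and 5 higher (3 without WT replicate 2 or with only the groups compared), with a median of -0.16. The receptor gene TNFRSF1A was slightly higher, at 90, 95.5 and 89.4 CPM in N108 and 76.8, 76.6 and 81.3 CPM in WT (0.23, adjusted p = 0.00035). Its adaptors and kinases leaned the other way. CHUK, the kinase IKKα, read 64.3, 57.8 and 69.7 CPM against 86.8, 91.1 and 93.1 CPM (-0.50, SE 0.05, adjusted p = 2.3e-08), and IKBKB, the kinase IKKβ, was at -0.32. TAB3, an adaptor of the TAK1 kinase, was at -0.53, RIPK1, the scaffold kinase, at -0.31, TRAF2, an adaptor ligase, at -0.28, and CFLAR, the inhibitor of caspase-8, at -0.37. The largest change of the list was that of BIRC3.

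The interaction of genotype with TNF was called for 498 genes (2.62%), 387 positive (2.03%) and 111 negative (0.583%). Genes with a positive term had a median GC of 60.95% and those with a negative term 40.53%. With the GC trend removed 135 genes were called, 99 positive and 36 negative, and 108 of the 498 were among them. The count ranged from 183 to 2430 when 1 library was left out, the last without N108 TNF replicate 3. The 6 smallest p belonged to TNFAIP3, NFKBIZ, NFATC4, TIFA, ATG16L2 and CHTF18. TNFAIP3 differed by -1.38 untreated and by -0.70 with TNF, an interaction of 0.68 (SE 0.08, adjusted p = 0.00026). NFKBIZ differed by -0.74 untreated, at 3.44, 4.22 and 4.12 CPM in N108 and 6.81, 6.34 and 6.58 CPM in WT, and was level with TNF, an interaction of 0.76 (adjusted p = 0.00054). TIFA, an adaptor that activates TRAF6, went the other way, from 0.26 untreated to -0.36 with TNF (-0.62, adjusted p = 0.0013). NFATC4, a transcription factor of calcium signalling, ATG16L2, a relative of an autophagy protein, and CHTF18, a clamp loader subunit, had interactions of 0.80, 0.81 and 0.57.

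**Figure D3:**
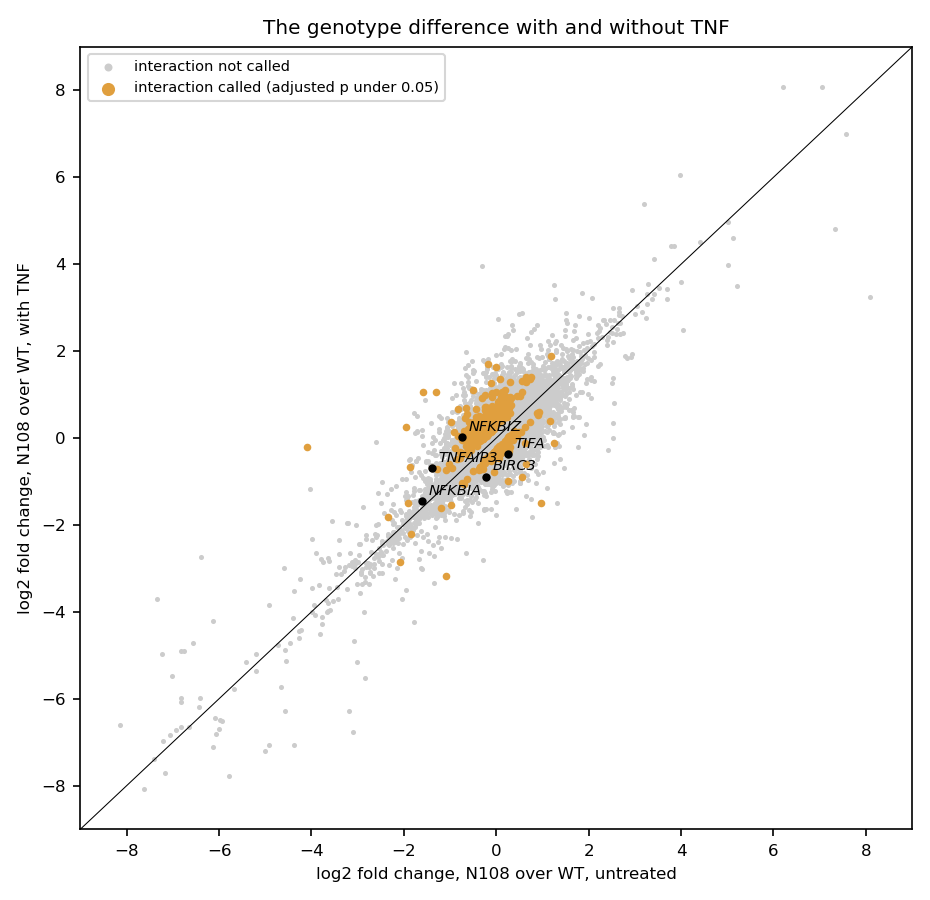
Log2 fold change of N108 over WT untreated (horizontal) and with TNF (vertical) for each gene tested, with the line of equal values. Orange points are the 498 genes whose difference changed with TNF at an adjusted p under 0.05, and NFKBIA lies close to the line at -1.60 and -1.46.

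Immediate early genes, which respond to growth factors and stress through kinases, went in both directions: 15 of 43 were higher and 18 lower, with a median of -0.03. EGR1, a zinc finger factor induced by ERK signalling, read 172, 182 and 162 CPM in N108 and 52.2, 53.8 and 61.6 CPM in WT (1.62, SE 0.06, adjusted p = 7.2e-19). ZFP36L1, which destabilises AU-rich transcripts, read 704, 861 and 758 CPM against 332, 343 and 344 CPM (1.19). FOS (1.14), FOSL2 (0.97), JUNB (0.37) and MYC (0.93) were higher. DUSP4, a phosphatase that turns off MAP kinases, read 193, 200.3 and 196 CPM in N108 and 489.7, 479.8 and 506 CPM in WT (-1.32, SE 0.04, adjusted p = 4.7e-20). The nuclear receptor NR4A3 (-2.01) and the stress factor ATF3 (-0.79) were lower. The untreated lines differed in the same direction in 31 of these 33 genes, 15 higher and 16 lower, as they did in 63.37% of all genes called with TNF.

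Of the 35 lists, that of interferon-stimulated genes had the most lower members by count: 43 of 51 were lower in N108 (84.31%). By share the heat shock list came first, with 19 of 22 lower (86.36%). In the interferon list 1 member was higher, and the median was -0.72 against 0.02 for all genes. These genes encode antiviral proteins and are switched on by interferon signalling. BST2, which tethers virus particles at the cell surface, read 3.06, 2.53 and 2.9 CPM in N108 and 15.3, 16 and 14.7 CPM in WT (-2.43, SE 0.09, adjusted p = 2.9e-18). IFIT1, which binds foreign RNA ends, read 3.93, 3.7 and 4.51 CPM and 17.3, 17.5 and 17.6 CPM (-2.11, SE 0.08, adjusted p = 1.4e-17). OAS1, a sensor of double-stranded RNA, read 1.69, 2.3 and 1.58 CPM and 14.1, 13.5 and 14.7 CPM (-2.94). IFI35 (-1.71), IFI44 (-1.85), IRF7 (-1.31) and ISG15, a ubiquitin-like modifier (-1.08), were lower by over 2-fold. IRF9, a transcription factor of the interferon response, was lower by less (-0.74).

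The single member that was higher was DDX60L, a helicase, at 61.8, 59.7 and 65.5 CPM in N108 and 24.9, 24.9 and 21.5 CPM in WT (1.39, SE 0.06, adjusted p = 5.4e-17). Untreated, 43 of the 51 were lower (21.6% of all genes were) and 2 higher, and no member had a called interaction by edgeR (13 at an unadjusted p under 0.05, and 1 by DESeq2). Over the M3 libraries, which share the WT controls, 40 were lower (27.8% of all genes were) and 3 higher (26.9%). An interferon-response-like motif, GAAANNGAAA on either strand, occurs in 3.65% of all promoters of 300 bases, and in 26 of the 43 tested members with a promoter sequence (60.5%), 22 of 36 lower ones and the 1 higher one. Promoters of BST2 and IFIT1, the list's strongest by p, and of DDX60L, its exception, are shown with matches in capitals, since the motif stands in all of them.
BST2, chr19:17405581-17405880, minus strand: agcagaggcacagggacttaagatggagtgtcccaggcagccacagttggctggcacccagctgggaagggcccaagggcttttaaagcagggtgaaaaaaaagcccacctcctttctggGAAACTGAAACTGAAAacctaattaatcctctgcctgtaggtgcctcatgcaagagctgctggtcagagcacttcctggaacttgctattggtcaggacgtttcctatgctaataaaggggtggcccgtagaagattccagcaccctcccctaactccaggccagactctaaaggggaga
IFIT1, chr10:89392373-89392672, plus strand: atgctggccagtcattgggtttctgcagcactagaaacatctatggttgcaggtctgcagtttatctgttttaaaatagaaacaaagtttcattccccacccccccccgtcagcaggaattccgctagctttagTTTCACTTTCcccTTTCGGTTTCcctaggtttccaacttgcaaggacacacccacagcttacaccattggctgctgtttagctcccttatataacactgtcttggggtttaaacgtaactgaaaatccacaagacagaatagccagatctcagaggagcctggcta
DDX60L, chr4:168480443-168480742, minus strand: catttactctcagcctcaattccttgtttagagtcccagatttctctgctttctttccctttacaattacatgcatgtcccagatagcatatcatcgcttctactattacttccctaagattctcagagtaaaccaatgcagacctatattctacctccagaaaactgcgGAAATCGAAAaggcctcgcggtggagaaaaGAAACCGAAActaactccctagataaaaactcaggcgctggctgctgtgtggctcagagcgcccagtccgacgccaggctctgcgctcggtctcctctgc
Each of the 3 windows holds 2 matches, and those of BST2 overlap.

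Antigen presentation genes were lower in 14 of 20 cases and higher in 0 by edgeR (0 at an unadjusted p under 0.05 and 0 by DESeq2), with a median of -0.26. Over the other settings the lower members numbered 11 to 16, and 1 was called higher without N108 replicate 3. TAP1 and PSMB9 are in the interferon list too. PSMB10, an immunoproteasome subunit, read 3.16, 2.84 and 3.05 CPM in N108 and 8.03, 6.96 and 8.56 CPM in WT (-1.38, SE 0.11, adjusted p = 9.6e-11). TAPBP, which loads peptide onto class I molecules, was at -0.48, ERAP1, a peptide-trimming protease, at -0.63, and B2M, the class I light chain, at -0.41.

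**Figure D4:**
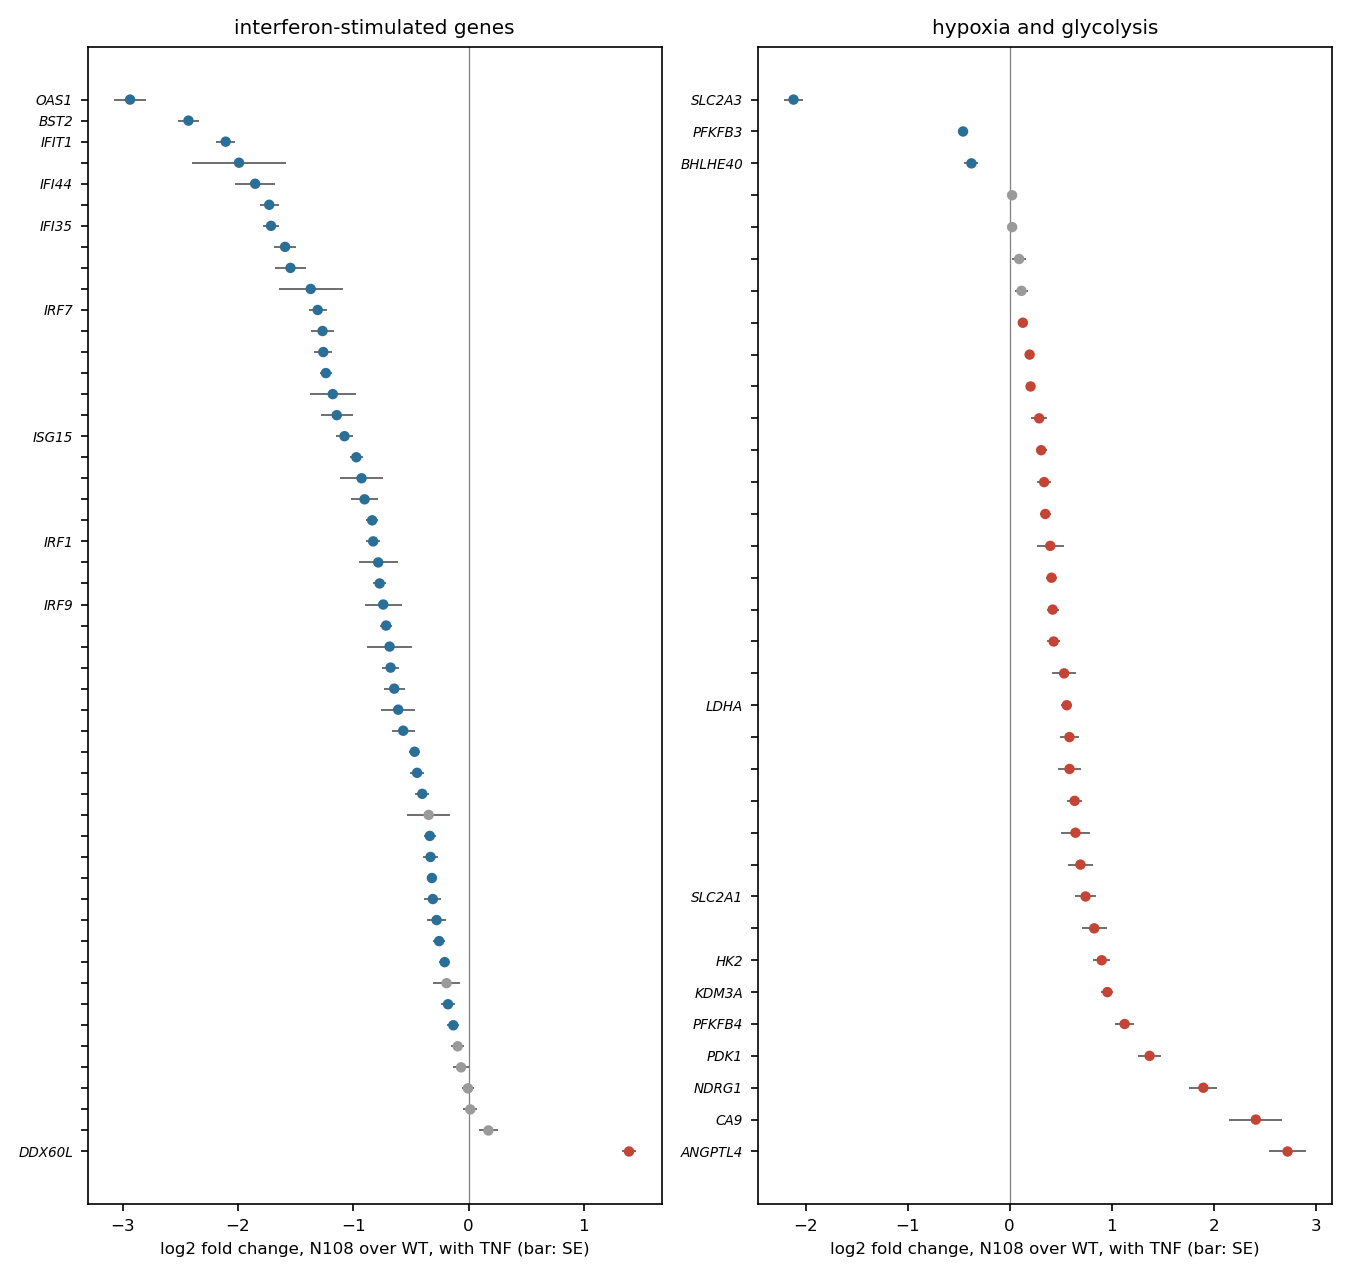
Log2 fold change of N108 over WT with TNF, with its standard error, for the tested members of 2 lists, ordered by value, with names for the members described in the text. Blue points were called lower, red points higher and grey points not called: 43 of 51 interferon-stimulated genes are blue and 27 of 34 hypoxia and glycolysis genes are red.

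The genes with the largest differences were outside these pathways. PLEKHS1, a pleckstrin-homology protein, stood at 0.163, 0.193 and 0.2 CPM in N108 and 50, 51.6 and 50.9 CPM in WT (-8.09, SE 0.11, adjusted p = 2.4e-28). SLC6A20, a proline transporter, stood at 0.31, 0.328 and 0.383 CPM and 31.5, 31.4 and 31.3 CPM (-6.52), and BPIFB1, a secreted mucosal protein, at 0.163, 0.135 and 0.15 CPM and 14.8, 15.8 and 17.4 CPM (-6.72). STC1, the hormone stanniocalcin-1, was the most abundant of the 12 lowest genes in WT, at 174, 186 and 209 CPM, and read 4.37, 4.53 and 4.96 CPM in N108 (-5.36). In each of these 4 genes the 3 N108 libraries lay far below the 3 WT libraries.

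Of the other lowest genes, 3 left only 2 counts in the N108 libraries together, so their ratios are given with exact 95% intervals for counting error. ANKRD1, a YAP target, had 369 counts in WT, a WT over N108 ratio of 199.5 (54.8 to 1654). TNC, the matrix protein tenascin-C, had 321 counts and a ratio of 173.6 (47.65 to 1439), and ITGBL1, an integrin-like protein, 219 counts and a ratio of 118.4 (32.4 to 984). DCLK1, a kinase known as a marker of tuft cells, was at -7.10, SEMG1, a semen coagulum protein, at -6.81, KRTAP3-1, a hair keratin-associated protein, at -6.19, LRP2, the endocytic receptor megalin, at -4.98, and PSG4, a pregnancy-specific glycoprotein, at -4.91. KRTAP3-1, PSG4 and SEMG1 have close paralogs whose reads may not have been told apart.

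At the other end, ACSL5, which activates long-chain fatty acids, read 426, 406 and 418 CPM in N108 and 39.3, 42.3 and 43.2 CPM in WT (3.32, SE 0.05, adjusted p = 4.9e-28). ANXA10, an annexin of gastric epithelium, read 28.5, 26.3 and 31.7 CPM and 2.7, 2.39 and 2.78 CPM (3.46, SE 0.09, adjusted p = 6.2e-22). RNF43, a ligase that removes Wnt receptors from the surface, read 31, 35.9 and 29.4 CPM and 4.23, 4.5 and 4.16 CPM (2.90, SE 0.08, adjusted p = 8.4e-22). LRP1B, an endocytic receptor, read 33.9, 31.5 and 37.2 CPM and 6.42, 6.33 and 3.78 CPM (2.64), and ANGPTL4, a lipase inhibitor induced by hypoxia, 23.3, 30.2 and 20.7 CPM and 3.54, 3.88 and 3.78 CPM (2.72). The rest of the 12 highest stood under 4 CPM: KCNQ3, a potassium channel (3.42), HEPH, a copper-dependent ferroxidase (2.90), LYL1, a blood transcription factor (2.86), FEZ1 (2.83), SEMA3E, a guidance factor (2.81), NLRP5 (2.71) and CDC42EP5 (2.65).

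The tested genes of intestinal identity did not move as a block. Of 26 adult intestinal stem cell genes 20 were tested, of which 7 were higher and 8 lower, with a median of -0.02. LGR5, ASCL2, OLFM4, SMOC2, PTPRO and HOPX were not among the genes tested, so the counts say nothing of these stem cell markers. RNF43 was the highest, CLU, a marker of revival stem cells, fell to 83.7, 89.6 and 78.4 CPM from 161, 162 and 173 CPM (-0.98, SE 0.05, adjusted p = 2.2e-15), and SOX9, a factor of crypt progenitors, to 168, 169 and 170.3 from 273, 262 and 279 CPM (-0.68). EPHB2, a receptor that grades along the crypt, was higher at 84.8, 85.2 and 81.6 against 53.7, 52.9 and 55.5 CPM (0.63), and TERT, the telomerase catalytic subunit, was at 1.36. Wnt targets and feedback genes were higher in 8 of 18 cases and lower in 6, with a median of 0.09. AXIN2, a standard readout of β-catenin, was level at 17.1, 14.6 and 15.9 against 16.2, 15.4 and 16.5 CPM, ETS2 (0.84), MYC (0.93) and BMP4 (0.72) were higher, and ZNRF3, a relative of RNF43 (-0.30), and DKK1, a secreted Wnt antagonist (-0.41), were lower.

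Genes of fetal-like regenerating epithelium were lower in 15 of 27 cases and higher in 6, with a median of -0.17. ANXA3, a calcium-dependent membrane-binding protein, read 40.1, 39.9 and 39.9 CPM in N108 and 290.0, 294 and 312 CPM in WT (-2.90, SE 0.04, adjusted p = 3.7e-27). TINAGL1, a matrix protein, was at -1.11 and ANXA1 at -0.48, while ANXA10 and the EGF receptor ligands AREG (0.92) and EREG (0.56) were higher. YAP/TAZ targets were lower in 16 of 24 cases and higher in 2, with a median of -0.30. Beside ANKRD1, CCN1 read 13, 14.1 and 12.9 CPM against 40.9, 34.9 and 49.4 CPM (-1.65, SE 0.08, adjusted p = 1.3e-14), AMOTL2, a junctional regulator of YAP, 56.2, 58.8 and 55.7 against 133, 121 and 139 CPM (-1.20), and CCN2 was at -1.75. The lists share 4 tested genes, ANKRD1, CCN1 and CCN2 among them.

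**Figure D5:**
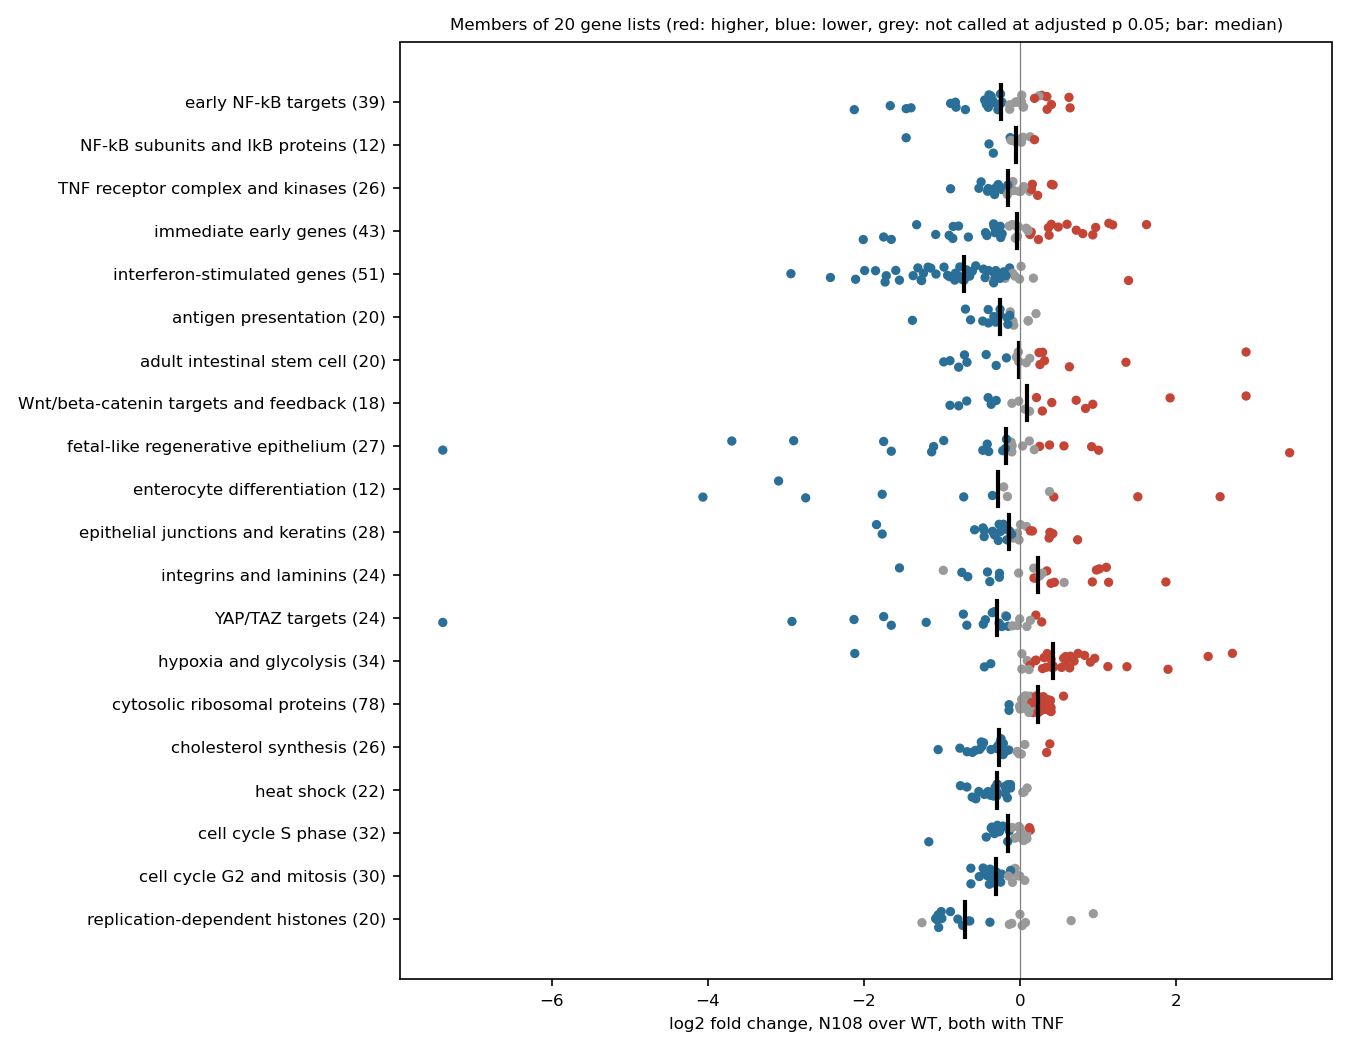
Each point is a tested gene of the list named at the left (number tested in brackets), placed by its log2 fold change of N108 over WT with TNF, and the black bar is the list's median. Interferon-stimulated genes have a median of -0.72 and hypoxia and glycolysis genes one of 0.43.

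Differentiation and adhesion genes differed gene by gene. Of 36 enterocyte genes only 12 were tested, of which 6 were lower and 3 higher. FABP1, SI, ALPI and VIL1 were among those not tested. CEACAM1, an adhesion molecule of the brush border, read 3.78, 4.17 and 4 CPM in N108 and 24.6, 27.1 and 28.4 CPM in WT (-2.75, SE 0.09, adjusted p = 4.4e-20), SLC5A1, the intestinal glucose transporter, was at -3.09 and MUC13, a membrane mucin, at -4.06. DPP4, a brush border peptidase, read 89.1, 79.7 and 89.4 CPM against 28.2, 30.9 and 31.4 CPM (1.51, SE 0.05, adjusted p = 9.2e-19), and HNF4A, a master factor of enterocytes, was higher from a low level (3.86, 4.15 and 5 against 0.894, 0.541 and 0.766 CPM, 2.57). Junction and keratin genes were lower in 16 of 28 cases and higher in 6 (3 with only the groups compared), with KRT23 at -1.84, KRT20 at -1.77 and CLDN4, a tight junction protein, at -0.58. Integrin and laminin genes were higher in 11 of 24 cases and lower in 7, with a median of 0.23. ITGB4, the hemidesmosome integrin, read 424, 475 and 408 CPM against 223, 216 and 206 CPM (1.02), and LAMA4, a laminin chain, was at 1.87.

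Hypoxia and glycolysis genes were higher in 27 of 34 cases and lower in 3, with a median of 0.43. NDRG1, a hypoxia-induced gene, read 336, 439.9 and 326 CPM in N108 and 87.9, 104 and 104 CPM in WT (1.90, SE 0.14, adjusted p = 7.2e-08). PDK1, which diverts pyruvate from mitochondria, read 32.6, 41.3 and 35.1 CPM against 14.3, 14.3 and 13.4 CPM (1.37), and KDM3A, a hypoxia-induced histone demethylase, 139, 155 and 141 against 73.2, 78.6 and 71.9 CPM (0.96). CA9 (2.41), PFKFB4 (1.13), HK2 (0.90), SLC2A1 (0.74) and LDHA (0.56) were higher. The 3 lower members were SLC2A3, a neuronal-type glucose transporter, at 2.69, 3.41 and 2.75 against 12.5, 12.3 and 13.4 CPM (-2.12), PFKFB3 (-0.46) and BHLHE40 (-0.37). N108 replicate 2 was the highest N108 library for ANGPTL4, NDRG1, PDK1 and PFKFB4. Untreated, 26 members were higher (76.47%, against 20.9% of all genes) and 2 lower (5.882%, against 21.6%).

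Cytosolic ribosomal protein genes were higher in 55 of 78 cases and lower in 2, with a median of 0.23 and values from -0.14 to 0.56. RPL22 read 205, 193 and 219 CPM against 157, 157 and 159 CPM (0.38), and RPL9 (0.40) and RPL32 (0.40) were similar in size. The lower ones were RPL17 (-0.14) and RPS23 (-0.14), calls that were lost without N108 replicate 2 (adjusted p of 0.088 and 0.18) or WT replicate 3 (0.22 and 0.11), and for RPS23 also without N108 replicate 3 (0.069) or WT replicate 1 (0.051). With the GC trend removed (0.077 and 0.054) or with only the groups compared (0.063 and 0.057) neither was called. These genes have many processed pseudogenes, so how their reads were assigned is uncertain. Cholesterol synthesis genes were lower in 20 of 26 cases and higher in 2, the lower ones including INSIG1, a brake on sterol synthesis (-0.77), and ACAT2 (-0.57). Heat shock genes were lower in 19 of 22 cases and higher in 0 by edgeR (1 at an unadjusted p under 0.05, 0 by DESeq2), with HSPH1 at -0.68, DNAJA1 at -0.57 and DNAJA4 at -0.46.

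Cell cycle genes called lower outnumbered those called higher. Of 30 genes of G2 and mitosis, 22 were lower and 0 higher by edgeR (0 at an unadjusted p under 0.05, 0 by DESeq2), with a median of -0.31, and of 32 genes of S phase 17 were lower and 2 higher, the higher count ranging from 0 (without N108 replicate 1 or WT replicate 2, or with only the groups compared) to 4 (GC trend removed). AURKA, a mitotic kinase, read 63.8, 57.4 and 62.1 CPM in N108 and 95.4, 90.4 and 97.9 CPM in WT (-0.63), CENPA, the centromere histone, was at -0.63 and CCNA2, cyclin A2, at -0.52. CCNE2, cyclin E2, had the largest change of the S phase list at 16.2, 17.4 and 19.6 against 38.4, 39 and 42.3 CPM (-1.17, SE 0.08, adjusted p = 4.7e-12), ahead of RRM2 (-0.37) and PCNA (-0.36). Replication-dependent histone genes were lower in 11 of 20 cases and higher in 0 (0 at an unadjusted p under 0.05 by edgeR, 0 by DESeq2), with a median of -0.70, as in H2BC5 (-1.04), H2AC6 (-0.74) and H1-2 (-0.80). Histone genes are near copies of each other, and a stricter filter on low counts left 7 lower, while 1 was called higher without N108 replicate 3 or WT replicate 3. Of the heat shock genes 1 was called higher with that filter or without N108 replicate 3.

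The remaining lists held called genes in both directions or few of them, and the shares over all genes were 23.0% higher and 23.6% lower. Notch pathway genes were higher in 7 of 23 cases and lower in 3, BMP and ID genes in 5 and 4 of 19, EGF receptor family genes in 9 and 8 of 25, and HOX genes in 10 and 10 of 32. Polycomb genes, p53 targets and the unfolded protein and ATF4 response leaned lower. Polycomb genes were higher in 6 and lower in 14 of 36 (38.89% lower). The p53 targets were higher in 2 and lower in 12 of 29 (41.38% lower). The same counts, 2 and 12 of 29, held for the unfolded protein and ATF4 response. NRF2 genes were higher in 8 and lower in 9 of 25. Mesenchymal genes were higher in 6 and lower in 8 of 16, neuronal genes in 5 and 5 of 16, and mitochondrially encoded genes in 2 and 0 of 15 (0 lower at an unadjusted p under 0.05 by edgeR, 0 by DESeq2). Some of these counts moved with the setting. With the GC trend removed, 6 Notch genes were lower and 10 Polycomb genes higher. The lower BMP and ID genes numbered 2 without N108 replicate 1 or 2 or WT replicate 3. The higher p53 targets numbered 1 without N108 replicate 1 or 2 or WT replicate 1 or 3. In the unfolded protein and ATF4 list the higher genes numbered 4 without N108 replicate 3 and 1 without N108 replicate 2 or WT replicate 2 or 3. Of the mitochondrially encoded genes 1 was higher without any one library other than WT replicate 2. With only the groups compared, 6 HOX and 5 NRF2 genes were higher. Of 1146 long intergenic RNAs 260 were higher (22.69%, near the share of all genes) and 120 lower (10.47%), and of 1319 antisense genes 264 were higher (20.02%) and 98 lower (7.43%). The sources used here do not say whether reads were counted by strand, so antisense genes cannot be separated from the genes they overlap.

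Runs of neighbouring genes changed together at 28 places, taking a run as 3 or more adjacent tested genes called in 1 direction with at least a 2-fold change. The longest was on chromosome 17 (41105332 to 41522529). There 13 genes within the type I keratin and keratin-associated cluster, not all of them keratins, were lower with a median of -2.64. In it, KRT13 read 16, 21.5 and 18.9 CPM against 91.8, 94.9 and 102 CPM (-2.36), KRT15 was at -1.29 and KRT32 at -3.01. A second run of 5 genes lay beside it (40922696 to 41060114), from KRT23 to KRTAP genes. On chromosome 22 (38921227 to 39104067) 8 genes of the APOBEC3 region, which encodes cytidine deaminases against viruses, were lower with a median of -1.36. APOBEC3G read 5.34, 4.3 and 4.63 CPM against 49.5, 51 and 53.5 CPM (-3.43) and APOBEC3C 177, 204 and 194 against 454, 466 and 504 CPM (-1.31).

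On chromosome 20 (45174876 to 45254564) PI3, SEMG1, SEMG2 and SLPI, secreted proteins of which PI3 and SLPI inhibit neutrophil elastase, were lower with a median of -5.36. SEMG2 had only 2 counts in the N108 libraries together and 139 in WT. Its WT over N108 ratio was 75.15 (exact 95% interval 20.4 to 627), and the median of the run rests partly on it. SLPI read 0.701, 1.04 and 0.716 CPM in N108 and 20, 21.2 and 23.1 CPM in WT. On chromosome 15 a run of 4 genes held MEIS2, a homeobox factor, at 13, 11.9 and 13.6 against 87.1, 88.6 and 86.3 CPM (-2.76). On chromosome 7 a run of 4 held IGFBP3, a binding protein of insulin-like growth factors, at 2.2, 4.09 and 3.08 against 22.4, 22.1 and 25.8 CPM (-2.92). On chromosome 6 a run of 3 higher genes held ID4, an inhibitor of helix-loop-helix factors, at 3.94, 4.51 and 4.85 against 0.813, 0.653 and 0.992 CPM (2.43). The medians of these runs were similar untreated, at -2.53 for the 13 genes of the longest run, -1.38 for the APOBEC3 region and -5.26 for the chromosome 20 run. Some other runs differed more between the conditions. A chromosome 19 run with CLDND2 had a median of 1.74 with TNF and 0.74 untreated. The chromosome 12 run from KRT80 to KRT7 had -1.26 and -2.19. Paralogs within the keratin and APOBEC3 clusters may share reads.

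The same comparison without TNF used 6 other libraries and called 8079 genes (42.4%), 3972 higher (20.9%) and 4107 lower (21.6%). In all, 5631 genes (29.6% of those tested) were called in the same direction with and without TNF. Of the 4385 genes higher with TNF, 2769 (63.15%) were also higher untreated, which is 69.71% of those called higher there. Of the 4501 lower genes, 2862 (63.59%, and 69.69% of those lower untreated) were shared. Of the genes at least 2-fold lower with TNF, 517 of 604 (85.6%) were also lower untreated, and of those at least 2-fold higher, 416 of 685 (60.73%). Only 87 genes were called in opposite directions. Median GC ran the other way without TNF, at 46.78% for higher and 53.05% for lower genes, so GC content moved with the 2 comparisons in opposite directions.

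The other mutant gives values to set beside these, since M3 and N108 were compared with the same WT libraries. With TNF, M3 against WT called 10417 genes (54.7%), and N108 against M3 called 7107 (37.3%). PLEKHS1, at 50, 51.6 and 50.9 CPM in WT, stood at 0.0313, 0.123 and 0.0724 CPM in M3 and 0.163, 0.193 and 0.2 CPM in N108. RNF43 stood at 2.71, 2.69 and 2.77 CPM in M3, below WT, and N108 exceeded M3 by 3.56 (adjusted p = 1.2e-22). ANXA10 was also low in M3 (2.62, 2.21 and 2.01 CPM), with N108 above M3 by 3.65 (adjusted p = 7.6e-22), and DPP4 stood at 25.1, 24.5 and 23.6 CPM, with N108 above by 1.82 (adjusted p = 5.9e-20). AXIN2 was level between N108 and WT but stood at 6.96, 6.6 and 6.87 CPM in M3 (1.22 for N108 over M3, adjusted p = 1.4e-13).

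The labelled cell type was checked against markers. All 18 colon epithelial markers were in the count table, and their summed level was 5669 to 6226 CPM in N108 and 7471 to 8061 CPM in WT. Most of that sum came from KRT8, KRT18 and KRT19, with KRT8 at 2474, 2451 and 2273 CPM in N108 and 3019, 2945 and 3222 CPM in WT. CDH17, LGALS4, GPA33, CEACAM5 and VIL1 stood at 0.405 CPM or less in every library. CDX2 stood at 28.87, 29.63 and 26.87 CPM in N108 and 20.83, 20.65 and 21.67 CPM in WT. EPCAM, an epithelial adhesion molecule, was at 297, 279 and 309 CPM and 303, 306 and 329 CPM, and CDX1 had no count in WT. Of 13 tested, 8 were lower in N108 and 2 higher (1 without N108 replicate 1 or WT replicate 2). Immune markers summed to 3.1 to 4.05 CPM in N108 and 4.67 to 6.25 CPM in WT, with PTPRC, CD3D, CD3E, CD3G, MS4A1 and NKG7 at 0 in both, and fibroblast and endothelial markers to 34.98 to 41.54 and 21.32 to 24.98 CPM, with COL1A2, DCN and LUM at 0 in both. Of the 5 immune markers tested, CD8A was higher (1.14) and LYZ lower (-4.89). COL1A1 made up most of the fibroblast sum, at 32.9, 36.4 and 30.3 CPM in N108 and 17.8, 18.5 and 15.3 CPM in WT (0.95). COL3A1, a second collagen of the list, was lower, at 2.79, 2.24 and 2.17 against 4.84, 4.48 and 4.11 CPM (-0.89). Of the 6 tested members of that list 3 were higher and 1 lower, and 1 was higher without N108 replicate 2 or WT replicate 3. In bulk RNA a change in the share of cells and a change per cell cannot be told apart.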

How the data were processed

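The labels describe paired-end libraries of total RNA from HCT116 knock-in cells. The authors deposited raw counts per gene. Per the submitters' processing notes, DESeq2 1.38.3, STAR 2.7.8, Trim Galore 0.6.6 and Subread 2.0.1 (featureCounts) were used on hg38. For annotation release and strand setting, nothing is stated: not given in the sources used here. The authors' normalized table was not used.

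The filter on genes was filterByExpr with minimum count 10, and libraries were scaled with TMM factors and tested with edgeR 4.0.16 in R 4.3.3 (robust quasi-likelihood, 6 group means over all 18 libraries, 12 residual degrees of freedom, two-sided, Benjamini-Hochberg over 19038 genes, threshold 0.05). Pooling all groups gives a shared estimate of spread. Standard errors divide the absolute log2 fold change by the root of F. Levels are CPM of TMM-scaled libraries, and a call means an adjusted p under 0.05. Symbols were matched for 87.46% of tested genes, and positions and GC came from GENCODE 29. Groups of 3 were compared, and depth was 49606478 to 61741921 counts in the 6 libraries. No pair of replicates was a duplicate (chi-square per degree of freedom 6.75 to 23.72).

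In simulated counts for this comparison (19038 genes), 62 of 100 genes changed by 0.5 and 78 of 100 by 1 (log2) were recovered, and among those at 1 CPM or more 60 of 71 and 71 of 72. Of the calls, 6.67% were false. Only the genes of these 2 sizes differed in the simulation, and no GC trend was put in. Its false share and recovery therefore belong to that setting and do not carry over to the calls in the data.

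The members and gene lists were chosen with earlier results of these data known. Named genes were the 12 highest and 12 lowest protein-coding genes with an adjusted p under 0.05, non-overlapping libraries and a mean of 1 CPM or more in 1 group. Added were the 3 smallest p of each list described in detail, all NF-κB and IκB genes, the 6 smallest p of the interaction, and members of runs of neighbours. A few genes that this rule names are not reported here. Other list members, and the genes named against M3 or among markers, were chosen after their values were seen. Promoters came from RefSeq, and motifs were searched on both strands. Alternatives were DESeq2 1.42.0, its size factors in edgeR, a stricter filter (1 CPM in 3 libraries), none, only the groups compared, a replicate block, removal of the GC trend, and each library left out. Intervals cover counting error only.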

Additional observations from a re-analysis of the deposited data

Results flagged for a closer look

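The groups of 3 libraries are too small for a test of single outlying libraries. The genes that follow were flagged because the difference between N108 and WT with TNF was itself different from that without TNF, by the interaction term of edgeR's quasi-likelihood test. In TNFAIP3 the term was 0.68 (adjusted p = 0.00026), in NFKBIZ 0.76 (adjusted p = 0.00054), in NFATC4 0.80 (adjusted p = 0.0011), in ATG16L2 0.81 (adjusted p = 0.0016), in CHTF18 0.57 (adjusted p = 0.0016) and in COL1A1 0.65 (adjusted p = 0.0025). TIFA (-0.62, adjusted p = 0.0013) and CD83 (-0.43, adjusted p = 0.011) moved the other way. These 8 genes stayed called in all 20 other settings and left-out libraries tried.

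The other flagged genes lost the call in some of the 20. BIRC3 (-0.67, adjusted p = 0.0033) lost it in both fits with the GC trend removed (-0.41 in each). CXCL8 (0.67, adjusted p = 0.016) lost it there and without N108 untreated replicate 1 or 2, and CXCL1 (0.87, adjusted p = 0.041) in 11 settings, with adjusted p up to 0.25. ZC3H12A (0.53, adjusted p = 0.011) lost it with the GC trend removed (0.37) and without N108 untreated replicate 2 (adjusted p = 0.052), and TERT (0.62, adjusted p = 0.014) with the GC trend removed (0.40 in both fits) and without WT TNF replicate 2 (adjusted p = 0.052).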

How the results depend on the processing

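Every other setting was chosen with the tests, none later. The count for N108 against WT with TNF stayed within 1.5 times of 8886, from 7398 (only the groups compared) to 9548 (replicate block with GC trend removed), and from 7737 to 8705 when 1 library was left out. No gene called both in the reported test and in another setting changed direction between them. The untreated count of 8079 ranged from 7480 (stricter filter) to 9255 (only the groups compared), and from 6873 to 7429 with 1 library left out. The interaction count of 498 moved to 1140 with DESeq2 (558 positive, 582 negative), to 1362 with no filter on low counts (696 and 666), to 135 with the GC trend removed and to 183 with the replicate block and GC trend removed. It ranged from 183 to 2430 with 1 library left out, 2430 being the value without N108 TNF replicate 3, and the cause was not tested. Only the groups compared gave 547, with 63.44% positive against 77.71%.

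The main test did not pair samples by replicate number. Same-numbered N108 and WT libraries had correlations of 0.16, -0.082 and -0.083 with TNF and of 0.074, 0.085 and 0.27 untreated. In both conditions not every library correlated best with its own number. The highest untreated value (0.33) was that of N108 replicate 2 with WT replicate 1. With the replicate number as a block, 8747 genes were called with TNF, 7980 untreated and 372 for the interaction.

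Of 2330 values for the 167 named genes with TNF, 2293 kept direction and call, 25 lost the call, 10 gained it and 2 reversed. The last 2 were CXCL8 with the GC trend removed, at 0.013 without and 0.015 with the replicate block. RELA lost its call in both other filters (adjusted p of 0.053 and 0.067). The number of lower members in the histone list fell from 11 to 7 with the stricter filter. At under 1 CPM the simulated recovery was lower, so a missing call there carries little weight.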
